A study of Mus musculus with 9 samples.

Results

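CD8+ T cells from the spleens of female C57BL/6 mice, 6 weeks old, that received 1 nM interleukin-2 (IL-2) or 1 nM interleukin-15 (IL-15) for 24 h were compared with untreated cells by RNA sequencing. The comparison uses 3 of the 9 libraries of the series, namely the IL-2 library, the IL-15 library and the single untreated library, and takes as results the genes that differed from the untreated library in the same direction with both cytokines. The other 6 libraries held the same cytokines at 1 nM for 4 h or at 500 nM for 4 or 24 h. Together with the IL-2 and IL-15 libraries compared, they served to estimate the spread. Each library was made from RNA pooled from 3 samples treated alike, so every condition has 1 library. No untreated library of 24 h was analysed here, so the cytokine and the 24 h outside the animal cannot be told apart. The libraries are bulk preparations in which fewer cells of a type and less RNA per cell cannot be told apart either.

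IL-2 and IL-15 bind receptors that share the beta chain (encoded by Il2rb) and the common gamma chain (Il2rg), and signal through the kinases JAK1 and JAK3 to the transcription factor STAT5. Each has an alpha chain of its own, Il2ra and Il15ra, that raises affinity. In CD8+ T cells these cytokines are known for promoting survival, division and cytotoxic function, while the related cytokine IL-7, whose receptor alpha chain is encoded by Il7r, maintains resting cells.

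The label was checked against marker genes. Cd8b1, the beta chain of the CD8 co-receptor, had 735 RPKM (the authors' read level scaled by library and transcript length) in the untreated library, 977 with IL-2 and 918 with IL-15, and Cd8a had 186, 149 and 145 RPKM. Cd4 lay at 1.17, 0.651 and 0.597 RPKM. Reads of other spleen cells were present in all 3 libraries: Csf1r of macrophages had 56.3, 3.93 and 7.53 RPKM. Reads summed over 1 transcript per gene came to 32213676, 48799962 and 38229903 in the untreated, IL-2 and IL-15 libraries. A count of 0 allowed up to 0.0969 CPM untreated (CPM being counts per 1000000 reads of library size scaled by TMM), 0.0594 with IL-2 and 0.0754 with IL-15. These limits and all intervals cover counting error only, because amplified reads carry no molecular identifiers and several can come from 1 molecule.

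Of 13479 genes tested, 961 (7.13%) lay at least 2-fold above the untreated library with both cytokines and 712 (5.28%) at least 2-fold below it. By edgeR's quasi-likelihood test of the mean of both cytokines at a false discovery rate (FDR) of 0.05, 116 genes rose (0.861%) and 106 fell (0.786%), and 2169 genes had an unadjusted p under the same 0.05. Both criteria were met by 109 higher genes (0.809%) and 95 lower genes (0.705%), and these 204 are called genes in what follows, while rose and fell refer to edgeR's test alone. Counts of list members that rose or fell are to be read beside the shares of 0.861% and 0.786%, at which short lists can hold none. The median log2 difference over all genes tested was 0.02, the mean of both cytokines being taken for each gene. The spread behind the test came from the 8 treated libraries, with 1 library per condition. It reflects how the 2 cytokines differed at 1 dose and time beyond a constant cytokine term. The single untreated library is fitted exactly and adds nothing to it, so a p-value speaks neither of variation among untreated pools nor among animals. Leaving out 1 of the 2 cytokine libraries at 1 nM and 24 h makes the other fitted exactly as well. The spread then comes from the other doses and times, so a call kept or lost says nothing of variation at 1 nM and 24 h. In the alternative fits a call means passing the test at the same FDR, without the fold rule. When the IL-2 library was left out, 36 of the 109 higher and 42 of the 95 lower genes were still called, and without the IL-15 library 85 and 67 were. Without each in turn, 34 higher and 39 lower genes were called both times. A fit with cytokine, dose and time as main effects alone called 19 genes in all, which were 1 of the 109 higher and 18 of the 95 lower genes. DESeq2 called 728.

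**Figure D1:**
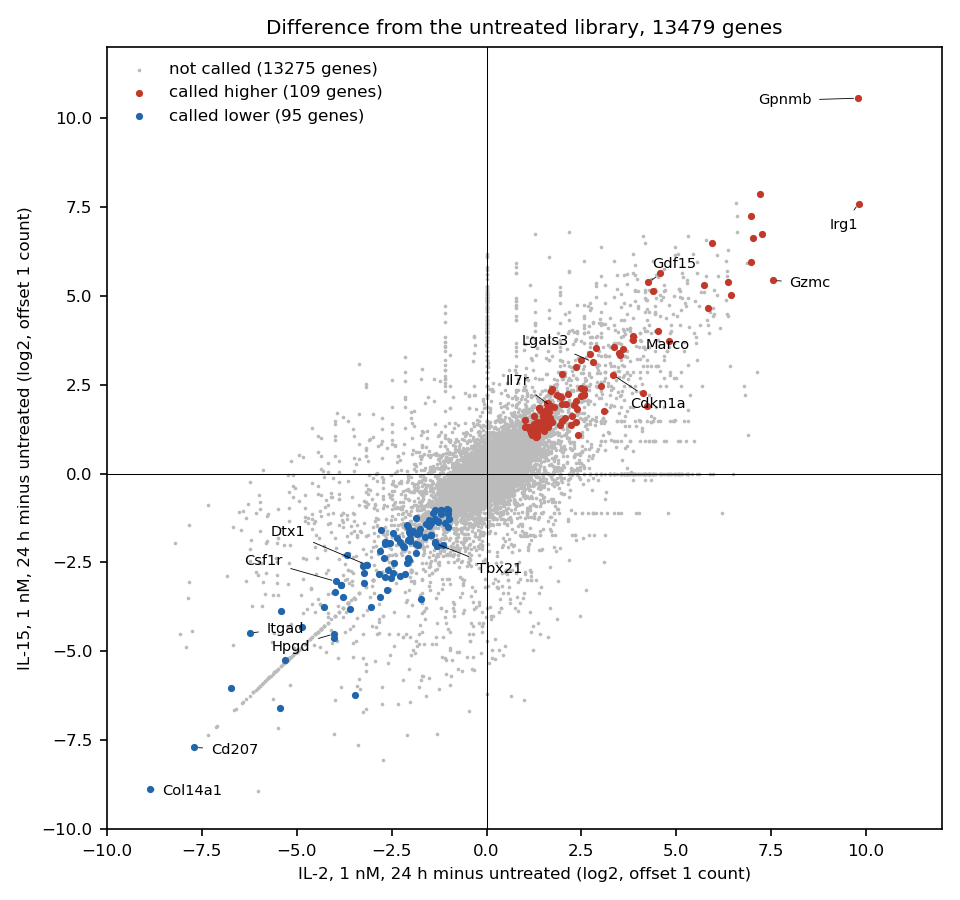
Each point is 1 of 13479 genes, with the log2 difference from the untreated library for IL-2 (1 nM, 24 h) on the horizontal axis and for IL-15 on the vertical axis, both with an offset of 1 count. The 109 genes called higher (red) and the 95 called lower (blue) lie in the upper right and lower left by the rule that chose them, and both axes share the same untreated library.

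Ranked by the smaller of the 2 log2 differences, the 15 highest of the called genes were Gpnmb, Irg1, Slc6a8, Cxcl2, Gprc5a, Dyrk4, Ccl9, Gzmc, Slc7a3, Sult2b1, Sgol2, Cenpi, Tubd1, Gdf15 and Marco. The 15 largest falls were Col14a1, Cd207, Gpr4, Hs3st2, Gprc5c, Itgad, Ptgis, Dnase1l3, Hpgd, Hfe, Trf, Plbd1, Tgfbi, Mpzl1 and Fcna. Promoter windows are shown for a pair at each end, because these genes went from or to almost no reads. They are the 250 bases before the annotated start from RefSeq (GRCm38.p6), 5′ to 3′ on the gene's strand: Gpnmb at chr6:49036268-49036517 (plus strand), Irg1 (listed there as Acod1) at chr14:103046762-103047011 (plus), Cd207 at chr6:83677858-83678107 (minus) and Gpr4 at chr7:19212288-19212537 (plus). Capitals mark matches, on either strand, to 8 motifs, which were searched for by their letters alone.
Gpnmb: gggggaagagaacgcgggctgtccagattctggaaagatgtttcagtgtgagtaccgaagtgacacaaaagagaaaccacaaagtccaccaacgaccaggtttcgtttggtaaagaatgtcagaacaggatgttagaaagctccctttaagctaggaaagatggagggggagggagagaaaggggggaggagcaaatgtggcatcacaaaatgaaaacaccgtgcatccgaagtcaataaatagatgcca
Irg1: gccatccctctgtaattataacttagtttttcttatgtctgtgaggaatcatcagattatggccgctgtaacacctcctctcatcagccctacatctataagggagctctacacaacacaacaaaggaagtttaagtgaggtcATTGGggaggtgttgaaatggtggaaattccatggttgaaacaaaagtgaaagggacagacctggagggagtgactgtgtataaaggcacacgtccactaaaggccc
Cd207: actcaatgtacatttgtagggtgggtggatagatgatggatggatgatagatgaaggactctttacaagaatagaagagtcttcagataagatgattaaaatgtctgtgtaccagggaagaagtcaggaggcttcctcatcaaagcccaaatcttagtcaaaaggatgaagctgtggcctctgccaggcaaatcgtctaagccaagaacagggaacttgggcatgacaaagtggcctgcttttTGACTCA
Gpr4: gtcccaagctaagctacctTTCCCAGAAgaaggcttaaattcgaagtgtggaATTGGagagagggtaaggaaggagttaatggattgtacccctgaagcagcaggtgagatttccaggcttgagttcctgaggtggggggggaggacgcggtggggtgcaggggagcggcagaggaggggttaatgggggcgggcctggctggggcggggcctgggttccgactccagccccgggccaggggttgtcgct

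The Irg1 window held 1 match to the CCAAT box (CCAAT, on the reverse strand), which 36.1% of the 10655 windows of tested genes also held. The Cd207 window ended in a match to the AP-1 motif TGANTCA, found in 4.42% of windows, and the Gpr4 window held a STAT motif (TTCNNNGAA, 6.12% of windows) and a CCAAT box, which do not overlap. The Gpnmb window held none of the 8, the others being CACGTG (8.22% of windows), TGACGTCA (2.70%), TTTGAA (10.8%), GAANNTTC (5.11%) and the core of the interferon-stimulated response element (2.72%). A match describes the letters in the window. Windows were found for 84 of the 109 higher genes (77.1%), 71 of the 95 lower genes (74.7%) and 79.0% of all genes tested. Motif shares of called genes are therefore not set against those of all genes, because fewer than 80% of either have a window.

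Gpnmb, a lysosomal glycoprotein gene of lipid-laden and phagocytic macrophages (NM_053110, chromosome 6), had 0 reads untreated, 24.6 CPM with IL-2 and 42.4 CPM with IL-15. The rise was at least 254-fold with IL-2 and at least 438-fold with IL-15, against a floor of 3 counts in the untreated library (edgeR adjusted p = 0.00049). In the other libraries it measured 0.754 and 0.83 CPM at 1 nM and 4 h, 0 and 0.0292 CPM at 500 nM and 4 h, and 1.76 and 0.801 CPM at 500 nM and 24 h, IL-2 first. Both 1 nM, 24 h libraries thus lay above all other libraries of the series. Irg1, which makes itaconate in activated macrophages, had 0 reads untreated, 24.97 CPM with IL-2 and 5.38 CPM with IL-15 (at least 258-fold and 55.6-fold higher, adjusted p = 0.00979). Cxcl2, a neutrophil-attracting chemokine, went from 0 reads to 3.46 and 4.20 CPM (at least 35.8-fold and 43.4-fold, adjusted p = 0.00296). Gdf15, a stress-induced cytokine gene, measured 1.52 CPM untreated, 29.7 with IL-2 and 64.4 with IL-15, and rose by 4.97 ± 0.70 (log2, SE, adjusted p = 0.00317). Ccl9, another chemokine, had 1 read untreated, so its ratios of 113 with IL-2 (95% exact interval 20.1 to 4503) and 167 with IL-15 (29.7 to 6645) are loosely bounded. Ccl9 lost its call without the IL-2 library (adjusted p = 0.122) or the IL-15 library (0.0806). Slc6a8, the creatine transporter, had 0 reads untreated against 4.14 and 6.49 CPM and lost its call likewise (0.0845 and 0.0712).

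Another 7 of the 15 highest rises started from 0 to 4 untreated reads. Gprc5a, an orphan receptor gene, measured 0, 4.25 and 2.99 CPM in the untreated, IL-2 and IL-15 libraries (at least 43.9-fold and 30.9-fold higher), and Dyrk4, a kinase gene, 0, 3.62 and 2.72 CPM (at least 37.4-fold and 28.0-fold). Slc7a3, a cationic amino acid transporter, measured 0, 2.26 and 1.16 CPM, Sult2b1, a sterol sulfotransferase, 0, 1.44 and 1.08 CPM, and Sgol2, which protects centromeric cohesion, 0, 2.39 and 0.880 CPM. Cenpi, a centromere protein gene, had 1 read untreated, and its ratios were 106 with IL-2 (95% exact interval 18.8 to 4212) and 46.7 with IL-15 (8.07 to 1876). Tubd1, the delta-tubulin gene, measured 0.129, 3.27 and 5.51 CPM. All 7 lost their calls without the IL-2 library, with edgeR adjusted p from 0.0693 (Tubd1) to 0.117 (Sgol2), and Tubd1 did without the IL-15 library (0.056).

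Macrophage and monocyte markers went in both directions. Of 21 listed markers tested, 4 rose and 5 fell by edgeR, and 4 were at least 2-fold higher and 9 at least 2-fold lower with both cytokines, with a median log2 difference of -0.56 against 0.02 over all genes. Their summed level was 2482 CPM untreated, 1296 with IL-2 and 1617 with IL-15, compared with 391.9 and 379.5 CPM at 1 nM and 4 h. None of the 21 was at 0 in any of the 3 libraries compared.

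The 4 that rose were Marco, Lyz2, Lyz1 and Cd5l. Marco, a scavenger receptor of macrophages (NM_010766, chromosome 1), measured 13.8 CPM untreated, 200 with IL-2 and 201 with IL-15, and rose by 3.88 ± 0.52 (adjusted p = 0.00244). It had 4.44 and 5.06 CPM at 1 nM and 4 h and at most 20.8 CPM at 500 nM, so the 2 libraries at 1 nM and 24 h stood apart from the other 7. Lyz2, the lysozyme gene of macrophages, measured 20.9, 138 and 217 CPM and rose by 3.06 ± 0.31 (adjusted p = 0.000375). Lyz1, its close paralog, measured 9.59, 53.5 and 87.5 CPM. The 2 lysozyme genes are similar in sequence and how reads were split between them is not stated in the labels. Cd5l, a protein secreted by tissue macrophages, measured 79.6, 285 and 366 CPM and rose by 2.04 ± 0.29 (adjusted p = 0.00392). All 4 stayed called when either cytokine library was left out.

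The 5 that fell were Csf1r, Mrc1, C1qc, Vcam1 and C1qa. Csf1r, the receptor that macrophages need for survival (NM_001037859, chromosome 18), measured 338 CPM untreated, 21.5 with IL-2 and 41.3 with IL-15. It fell by 3.41 ± 0.42 on the log2 scale (adjusted p = 0.00141) and measured 38.5 and 38.1 CPM at 4 h with 1 nM, so the 4 h libraries were low as well. C1qc, a subunit of complement C1q, measured 837, 161 and 238 CPM, and fell by 2.08 ± 0.32 (adjusted p = 0.00633). C1qa measured 264, 94.1 and 101 CPM, and C1qb, the remaining subunit, measured 360, 132 and 134 CPM without passing the test (adjusted p = 0.114). Vcam1, an adhesion molecule of splenic macrophages and stroma, measured 218, 54.3 and 59.0 CPM. Mrc1, the mannose receptor, measured 22.1, 2.63 and 1.61 CPM. Of these 5, Csf1r and Vcam1 kept their call without either library. C1qc, C1qa and Mrc1 lost it without the IL-2 library (adjusted p = 0.0693, 0.242 and 0.105), and Mrc1 without the IL-15 library as well (0.0636). C1qa also lost it with total-count scaling (0.0691).

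Several of the largest falls are genes known from splenic macrophages or dendritic cells. Itgad, an integrin chain of red pulp macrophages, measured 115 CPM untreated, 1.504 with IL-2 and 5.13 with IL-15, and fell by 5.26 ± 0.48 (log2, adjusted p = 0.00027). Trf, which encodes transferrin, measured 329, 16.9 and 24.2 CPM, and Hpgd, an enzyme that degrades prostaglandins, 97.9, 6.02 and 4.28 CPM. Fcna, a ficolin lectin, measured 358, 22.2 and 35.4 CPM. Plbd1, a phospholipase B-like gene, measured 180, 14.9 and 12.9 CPM and fell by 3.70 ± 0.26, with the smallest adjusted p of all genes (6.57e-05). Dnase1l3, a secreted DNase of macrophages and dendritic cells, measured 239, 14.7 and 9.68 CPM. These 6 kept their call without either library, and in each the 2 cytokine libraries lay below the 4 h values at 1 nM. Cd207, the langerin gene of dendritic cells, had 5.81 CPM untreated and 0 reads in both cytokine libraries, which makes it at least 97.9-fold lower with IL-2 and 77.0-fold lower with IL-15 (adjusted p = 0.0134). Col14a1, a collagen gene, went from 13.1 CPM to 0 reads in both (at least 221-fold and 174-fold lower, adjusted p = 0.00889). Gpr4, a proton-sensing receptor gene, had 158 reads untreated, 1 with IL-2 and 2 with IL-15, ratios of 258 (95% exact interval 45.6 to 10245) and 101 (27.6 to 845, adjusted p = 0.0297). Without the IL-2 library Cd207, Col14a1 and Gpr4 missed the threshold (adjusted p = 0.0841, 0.0708 and 0.165), and Gpr4 did so without the IL-15 library (0.0511). Of the other genes among the 15 largest falls, Hs3st2, a heparan sulfate sulfotransferase, measured 24.6, 0.534 and 0.226 CPM and fell by 6.13 ± 0.80 (adjusted p = 0.00278). Hfe, a regulator of iron uptake, measured 41.0, 0.930 and 2.77 CPM, Tgfbi, an extracellular matrix protein gene, 24.6, 2.20 and 0.302 CPM, and Mpzl1, a membrane glycoprotein gene, 52.8, 3.80 and 4.78 CPM. These 4 kept their calls without either library. Ptgis, prostacyclin synthase, measured 42.1, 1.42 and 2.09 CPM, and Gprc5c, an orphan receptor gene, 5.84, 0.119 and 0.126 CPM. Both lost their calls without the IL-2 library (adjusted p = 0.197 and 0.18), and Gprc5c did without the IL-15 library (0.0961).

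**Figure D2:**
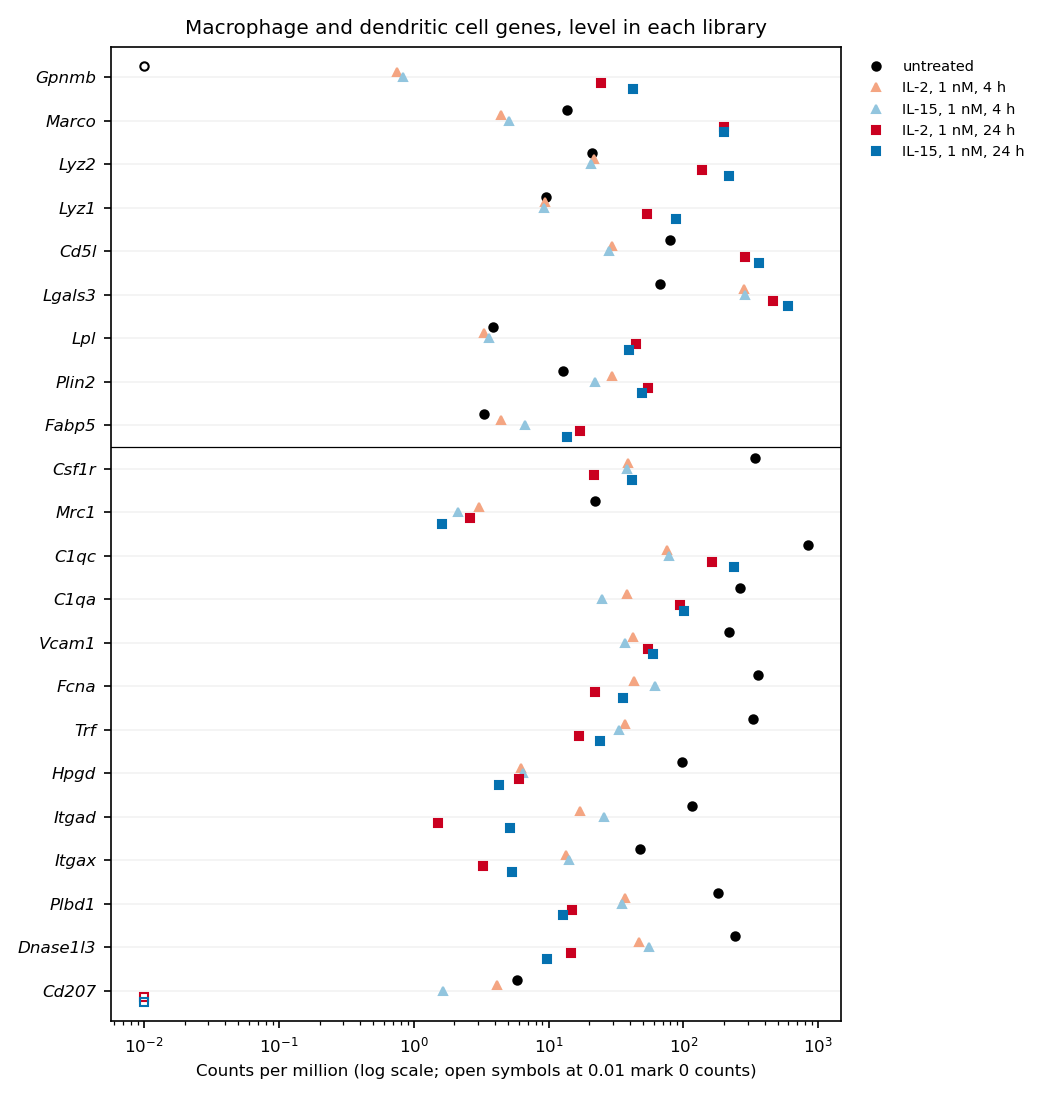
Level of 22 genes in CPM on a log axis, 1 symbol per library, with genes that rose above the line and genes that fell below it. They are genes known from macrophages or dendritic cells, genes of lipid handling and Lgals3. The cells that their reads came from were not tested. Gpnmb, Marco, the lysozyme genes and Lpl are high only in the squares of the 1 nM, 24 h libraries, while Csf1r, Trf and Hpgd are high in the untreated library and low in the 4 h libraries (triangles) as well.

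Genes of lipid uptake and storage were among those that rose. Of 25 tested genes of lysosomes and lipid handling, 4 rose, namely Gpnmb, Lpl, Plin2 and Fabp5, and 1 fell, Hexa, against a list median of 0.09 (log2), with 0.06 for IL-2 alone and 0.13 for IL-15 alone. Lpl, lipoprotein lipase, measured 3.84 CPM untreated, 44.1 with IL-2 and 39.4 with IL-15, and rose by 3.45 ± 0.47 (adjusted p = 0.00259). Plin2, which coats lipid droplets, measured 12.8, 54.3 and 49.5 CPM, and Fabp5, a fatty acid binding protein, 3.29, 17.1 and 13.7 CPM. Lgals3, the galectin-3 gene, measured 67.1, 465 and 592 CPM and rose by 2.98 ± 0.27 (adjusted p = 0.00027). It was the only gene of 34 tested for the cytoskeleton and adhesion that passed. Hexa, a lysosomal hexosaminidase, measured 287, 115 and 153 CPM, a fall of less than 2-fold with IL-15. Without the IL-2 library Plin2, Fabp5 and Hexa missed edgeR's threshold, and Hexa did with total-count scaling (edgeR adjusted p = 0.0665). Lpl and Lgals3 kept their calls without either library. Among genes chosen after their values were seen, Capg, an actin-capping protein of macrophages, measured 12.3, 69.1 and 56.5 CPM, and Naaa, a lysosomal amidase, 281, 29.6 and 33.4 CPM. Axl, a receptor for the uptake of dying cells, measured 337, 35.5 and 55.0 CPM, and all 3 kept their calls without either library.

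Few markers of the remaining cell types passed the test, and those that did fell. Of 12 dendritic cell markers tested, 1 fell, Itgax (47.2, 3.28 and 5.33 CPM, adjusted p = 0.00242), and 5 were at least 2-fold lower with both cytokines, with a list median of -1.02. Cd209a was at 0 in both cytokine libraries, and Ccl22, a chemokine of activated dendritic cells, measured 14.4, 45.4 and 27.3 CPM without passing the test. Of 10 class II genes, which had a median of -0.50, Ciita, their master regulator, fell (42.9, 9.26 and 10.5 CPM, adjusted p = 0.0134), without holding in the fit that left out IL-15 (0.0525). Of 10 NK cell markers tested, Fcer1g fell (88.4, 30.6 and 35.8 CPM) with a list median of -1.01; it encodes a signalling chain that myeloid cells also use, and it lost its call without the IL-2 library (0.155) or the IL-15 library (0.0564). The defining NK receptor gene Ncr1 had 0, 0.495 and 0.176 CPM. Of 8 erythroid and platelet markers tested, 4 passed, all globin genes: Hba-a1 and Hba-a2 share 1 set of counts, and so do Hbb-b1 and Hbb-b2, which makes 2 measurements. Hbb-b1 measured 53.5, 19.3 and 16.2 CPM, and Hba-a1 33.0, 13.2 and 7.97 CPM. Both lost their call without the IL-2 library (adjusted p = 0.0877 for Hbb-b1 and 0.0736 for Hba-a1), and Hba-a1 did without the IL-15 library (0.109) and with total-count scaling (0.0522). None of 17 B cell markers passed, and they summed to 1046, 1113 and 1100 CPM. Their median was -0.26, or -0.39 with counts under 3 set to 3, and Pax5 was at 0 in all 3 libraries. None of 15 T cell identity genes passed either, and they summed to 7942, 7366 and 7584 CPM, with a median of -0.11. None of 8 neutrophil, 8 stromal and 8 CD4+ or regulatory T cell markers passed, with medians of -0.86, -1.38 and 0.06. Summed over all measured members, the neutrophil list had 12.2, 2.83 and 3.85 CPM and the CD4+ list 87.2, 124 and 96.4 CPM. The stromal list had 60.5, 80.9 and 79.5 CPM, so its sum was higher with both cytokines while its median was negative. With counts under 3 set to 3 the neutrophil median was -1.34 and the stromal median -0.75, and the CD4+ list had 0.44 for IL-2 alone and -0.40 for IL-15 alone. The part that these cell types have in the results on single genes was not tested.

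Among genes of T cell cytokine signalling, the IL-7 receptor chain and a feedback inhibitor rose. Of 22 cytokine receptor chains 1 rose, Il7r (NM_008372, chromosome 15), which measured 146 CPM untreated, 475 with IL-2 and 543 with IL-15. The rise was 1.802 ± 0.35 (log2, SE, adjusted p = 0.0283), and the adjusted p was 0.0613 without the IL-2 library and 0.0518 without the IL-15 library. At 500 nM and 24 h Il7r measured 29.1 and 28.2 CPM, below the untreated library. The shared chains Il2rb (378, 397 and 282 CPM) and Il2rg (232, 260 and 236 CPM) did not pass the test. Of 25 genes of JAK-STAT signalling and STAT5 targets, Socs1, Lif and Tnfrsf4 rose and Jak3 fell. Socs1, an inhibitor of JAK kinases, measured 19.2, 54.6 and 44.2 CPM and rose by 1.36 ± 0.25 (adjusted p = 0.018). It stood at 20.6 and 19.4 CPM at 1 nM and 4 h, near the untreated library. Tnfrsf4, the costimulatory receptor OX40, measured 1.42, 11.7 and 7.95 CPM. Lif, a cytokine of the IL-6 family, measured 0.549, 10.8 and 2.11 CPM, higher with IL-2 than with IL-15. Jak3, the kinase bound to the common gamma chain, measured 278, 134 and 139 CPM and fell by 1.03 ± 0.21 (adjusted p = 0.0336). All 4 missed the threshold without the IL-2 library (adjusted p = 0.0708 for Socs1, 0.0613 for Lif, 0.0728 for Tnfrsf4 and 0.122 for Jak3), and Jak3 did without the IL-15 library (0.0636).

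The transcription factors of effector and memory CD8+ T cells that passed the test moved in opposite directions. Of 20 tested, Tbx21 and Eomes fell and Nfil3 rose, with a list median of -0.28. Tbx21, which encodes T-bet (NM_019507, chromosome 11), measured 122 CPM untreated, 47.7 with IL-2 and 31.3 with IL-15. It fell by 1.66 ± 0.23 (log2, adjusted p = 0.00317) and kept its call without either library. Its levels at 500 nM and 24 h were 137 and 87.7 CPM, and those at 1 nM and 4 h were 29.5 and 27.0 CPM. Eomes, its relative, measured 103, 51.0 and 36.4 CPM (adjusted p = 0.0366), which became 0.108 without the IL-15 library and 0.0508 with total-count scaling. Nfil3, a factor of natural killer and helper cell development, measured 1.39, 6.99 and 5.36 CPM (adjusted p = 0.0429), and the call was lost without the IL-2 library (0.115) or the IL-15 library (0.0518). Of 21 costimulatory and inhibitory receptors, Tnfrsf4 rose and Lag3 fell. Lag3, an inhibitory receptor that binds class II molecules, measured 27.2, 6.29 and 10.01 CPM (adjusted p = 0.0364). It lost its call without the IL-2 library (0.176) and with total-count scaling (0.0512).

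The cytotoxic genes that passed the test went in both directions. Of 20 tested, 1 rose, Gzmc, and 1 fell, Gzmm, while 4 were at least 2-fold higher with both cytokines. The list median was 0.69, with 0.95 for IL-2 alone and 0.21 for IL-15 alone, or 0.29 with counts under 3 set to 3, since 5 members had 0 reads in the untreated library. Gzmm, the granzyme M gene, measured 50.3 CPM untreated, 9.18 with IL-2 and 8.70 with IL-15 and fell by 2.47 ± 0.32 (log2, adjusted p = 0.00211); it kept its call without either library. Gzmc went from 0 reads to 5.20 and 1.18 CPM (at least 53.7-fold and 12.2-fold, adjusted p = 0.0462), a call lost without the IL-2 library (0.106). NK cells also use these genes, and the NK cell markers summed to 216, 78.0 and 91.2 CPM in the same libraries. That sum includes Fcer1g and Tyrobp, which myeloid cells also use, and Fcgr3, which is on the macrophage list as well. The separate list of 12 NK receptor genes of CD8+ T cells summed to 30.4, 27.2 and 29.1 CPM. The part of NK cells in these results was not tested. Gzmb, the granzyme B gene (NM_013542, chromosome 14), lay at 8.88 CPM untreated, 351 with IL-2 and 31.0 with IL-15. It was 39.4-fold and 3.48-fold above the untreated library, and the mean of both cytokines did not pass (log2 4.24 ± 1.04, edgeR adjusted p = 0.0666). The gap between the 2 cytokine libraries counts as spread in that test. It no longer does when either library is left out, so those fits are not given for Gzmb. Prf1, which encodes perforin, measured 133, 67.5 and 73.0 CPM (adjusted p = 0.0561). Of 19 chemokines and chemokine receptors, Ccl9 and Ccl4 rose. Ccl4, a chemokine of activated T cells and macrophages, measured 6.07, 31.2 and 16.6 CPM and rose by 1.95 ± 0.33 (adjusted p = 0.0134), with and without either library.

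The genes of naive and resting T cells that passed the test all rose. Of 20 naive, memory and homing genes, Il7r and Bach2 rose and none fell, with a list median of 0.19. Of 24 quiescence and FOXO genes Pik3ip1, Slfn1 and Slfn2 rose and none fell, with a median of 0.20 (0.06 for IL-2 alone and 0.44 for IL-15 alone). By the fold rule 2 genes of the naive list were higher with both cytokines and 0 lower. In the quiescence list 4 were higher and 1 was lower. Bach2, a repressor that restrains effector differentiation, measured 12.9, 32.4 and 35.3 CPM (log2 1.39 ± 0.30, adjusted p = 0.0376). Pik3ip1, an inhibitor of PI3 kinase, measured 180, 370 and 445 CPM (adjusted p = 0.0497), with an adjusted p of 0.0562 under median-of-ratios scaling. Slfn2, which maintains T cell quiescence, measured 121, 344 and 308 CPM, and its relative Slfn1 measured 216, 542 and 451 CPM; schlafen genes are similar in sequence. All 4 missed the threshold without the IL-2 library (adjusted p = 0.0963 for Bach2, 0.0764 for Pik3ip1, 0.157 for Slfn1 and 0.114 for Slfn2), and Bach2 and Pik3ip1 without the IL-15 library (0.0553 and 0.11). The naive cell factor Tcf7 measured 1912, 1581 and 2046 CPM and did not pass the test. At 500 nM and 24 h Tcf7 measured 331 and 352 CPM.

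Several genes of the immediate early response fell. Of 27 tested, Fos, Egr1 and Dusp6 fell and Atf3 and Ier3 rose, 5 were at least 2-fold lower with both cytokines and 2 higher, and the median was -0.34 (-0.47 for IL-2 alone and -0.53 for IL-15 alone). Fos, a subunit of AP-1, measured 36.3 CPM untreated, 9.93 with IL-2 and 7.67 with IL-15, and fell by 2.05 ± 0.26 (log2, adjusted p = 0.00156). Egr1 measured 94.5, 19.4 and 12.8 CPM, and Dusp6, a phosphatase that ERK signalling induces and that inactivates ERK, 106, 18.3 and 13.7 CPM. At 1 nM and 4 h Egr1 measured 69.5 and 65.9 CPM whereas Dusp6 was already at 12.9 and 15.6 CPM. Atf3, a stress-induced factor, measured 3.36, 25.1 and 39.1 CPM and rose by 3.25 ± 0.36 (adjusted p = 0.000661). Ier3 measured 7.01, 30.9 and 33.3 CPM. These 5 kept their calls without either library. Of 16 heat shock chaperones Hspa1a, which is nearly identical to Hspa1b, fell (11.7, 3.50 and 0.981 CPM, adjusted p = 0.0284), without holding in the fit that left out IL-15 (0.0613). Of 18 NF-kB genes, Traf1, a target, rose (74.5, 158 and 184 CPM) and Nfkbiz, an atypical inhibitor, fell (51.6, 20.2 and 21.2 CPM). Both calls were lost without the IL-2 library (adjusted p = 0.0777 and 0.0585).

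**Figure D3:**
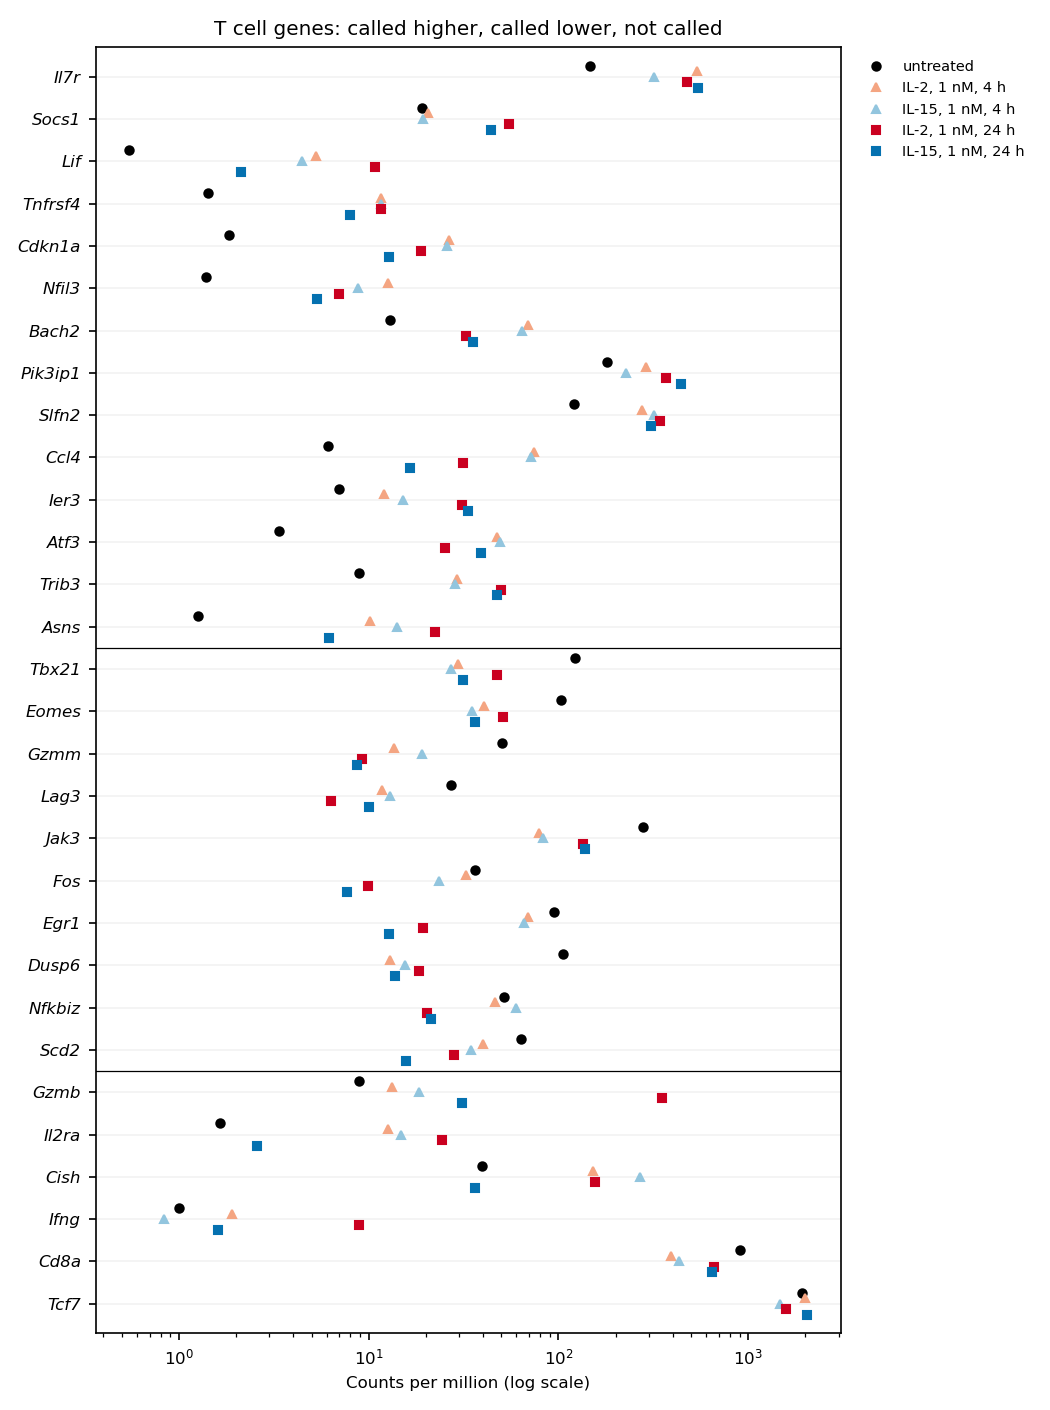
Level of 30 T cell and stress genes in CPM on a log axis, 1 symbol per library, in 3 blocks: called higher, called lower and not called. In the first 2 blocks both squares (1 nM, 24 h) lie on the same side of the untreated library (black circle), and for Gzmb, Il2ra, Cish and Ifng the IL-2 square lies far above the IL-15 square.

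A few genes of stress and amino acid pathways rose while most members did not pass. Of 27 genes of amino acid transport and ATF4 targets, Asns and Trib3 rose. Trib3, a pseudokinase induced by ATF4, measured 8.88 CPM untreated, 49.6 with IL-2 and 47.3 with IL-15, and rose by 2.45 ± 0.31 (log2, adjusted p = 0.0017). Asns, asparagine synthetase, measured 1.26, 22.4 and 6.16 CPM (adjusted p = 0.0222), and both kept their calls without either library. Of 22 oxidative stress and NRF2 genes, Sqstm1 (134, 301 and 303 CPM) and Ftl1 (234, 555 and 512 CPM) rose, 6 were at least 2-fold higher with both cytokines and none lower, and the median was 0.48. Sqstm1 is an autophagy receptor and Ftl1 a ferritin chain, and their adjusted p was 0.0708 and 0.122 without the IL-2 library. Of 19 p53 targets, Cdkn1a rose. It encodes the cell cycle inhibitor p21 (NM_007669, chromosome 17), measured 1.84, 18.8 and 12.8 CPM and rose by 3.09 ± 0.45 (adjusted p = 0.00411), with and without either library. It was also the 1 gene that passed among 22 G1 cyclins and CDK inhibitors. Of 33 genes of cholesterol and fatty acid synthesis, Scd2, a fatty acid desaturase, fell (63.3, 28.3 and 15.8 CPM, adjusted p = 0.0156), with and without either library.

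Genes of cell division and of the interferon response had higher medians with IL-2 than with IL-15. Of 29 mitosis genes none passed at an adjusted p of 0.05, and their median was 1.24 with IL-2 and -0.19 with IL-15. Of 33 DNA replication genes Cdc45l, a helicase subunit, rose (0.807, 9.32 and 8.70 CPM, adjusted p = 0.0366), which became 0.0728 without the IL-2 library and 0.0525 without the IL-15 library. The replication median was 0.90 with IL-2 and 0.03 with IL-15. Of 30 interferon-stimulated genes none passed, with medians of 0.75 and 0.24 and summed levels of 2226, 6151 and 2188 CPM. Igtp, an interferon-induced GTPase, measured 363, 2125 and 427 CPM, and Cxcl10 measured 3.002, 51.8 and 7.39 CPM. Il2ra measured 1.65, 24.4 and 2.57 CPM, Cish, a STAT5-induced inhibitor, 39.6, 156 and 36.5 CPM, and Ifng 1.001, 8.85 and 1.61 CPM. In all 5 the IL-2 library was the highest of the 3, and none passed the test of the mean of both cytokines. In that test a cytokine difference that varies between conditions counts as spread, so genes that change with only 1 cytokine pass less readily. The same limit holds for the mitosis and interferon lists. Fits without the IL-15 library are not given for these 5 genes, because the cytokine difference at 1 nM and 24 h then no longer enters the spread. The difference between the cytokines was not tested.

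None of the tested members passed for the BCL-2 family (18), hypoxia targets (17), glycolysis (20), the respiratory chain (26), ribosome biogenesis (25), cytosolic ribosomal proteins (36), the unfolded protein response (21), class I presentation (17), the circadian clock (14) and NK receptors of CD8+ T cells (12). Over all genes tested 0.861% rose and 0.786% fell, shares at which lists of this size can hold none. Over these 10 lists the medians of the mean of both cytokines lay between -0.16 and 0.25 (log2). Those for IL-2 alone lay between -0.13 and 0.50 and those for IL-15 alone between -0.25 and 0.18. Within them Bcl2 measured 210, 208 and 172 CPM. Bcl2l11, which encodes the pro-apoptotic protein BIM, measured 44.3, 95.5 and 77.6 CPM (adjusted p = 0.0887). Myc, of the STAT5 target list, measured 457, 310 and 255 CPM (adjusted p = 0.154).

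**Figure D4:**
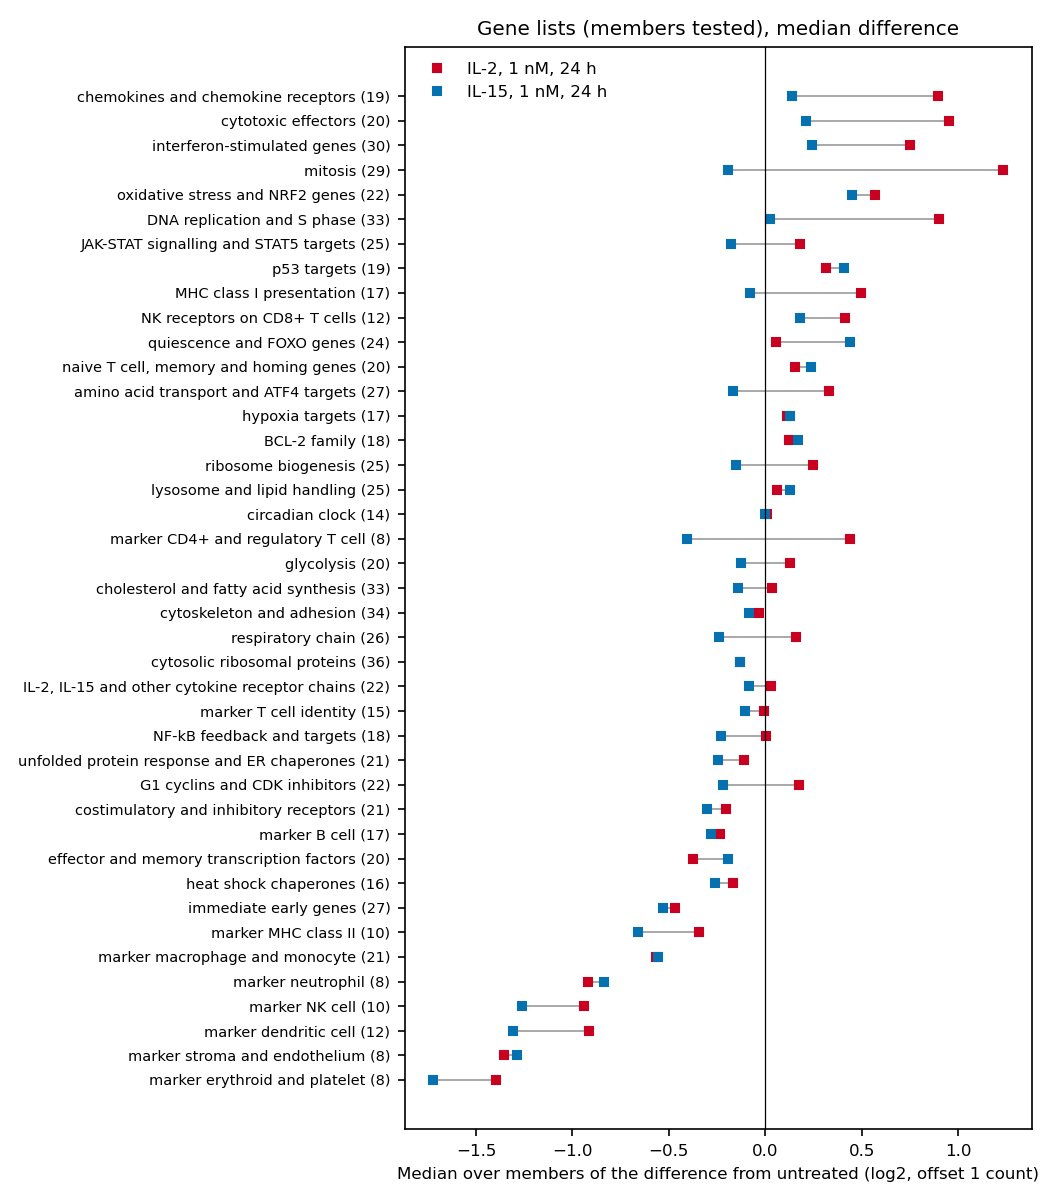
Median log2 difference from the untreated library for 41 gene lists, with IL-2 (red) and IL-15 (blue) at 1 nM and 24 h and the number of members tested in brackets. Mitosis has the widest gap between the cytokines, and the medians of erythroid, stromal, dendritic, NK cell and neutrophil markers lie between -1.72 and -0.84 over both cytokines. With counts under 3 set to 3 the stromal median was -0.75.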

How the data were processed

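Per the labels, 2.5 ng of RNA pooled from 3 samples was amplified by 12 and then 9 cycles of PCR and, after fragmentation, by 17 more. The submitters' processing notes name CASAVA 1.8, Bowtie 0.12.4 and mm8. How strand and multi-mapping reads were handled is not stated in the labels or headers. Each deposited file holds raw read counts per RefSeq transcript. The RPKM values in it were computed by the authors from the same counts, per the file headers. RPKM was used only for the marker genes in the check of the label, and all tested differences between libraries were computed from the counts.

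For each of 20418 gene symbols the transcript with the highest mean count over 9 libraries was used. Genes were filtered by filterByExpr (minimum count 10, total 15) and scaled by TMM. edgeR 4.0.16 (R 4.3.3, quasi-likelihood, legacy deviances) fitted 5 conditions (untreated and each dose at each time) plus an additive cytokine term over 9 libraries, which left 3 residual degrees of freedom. P-values were adjusted by Benjamini-Hochberg over 13479 genes. The SE given after ± is the absolute log2 difference divided by the square root of the test's F statistic. Like the p-values, it holds no variation among untreated pools. This fit assumes that the cytokines differ alike in every condition, and any further difference between them counts as spread. The fold rule asks for 2-fold with each cytokine, an offset of 1 count and at least 20 counts at the higher level.

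The members and 41 gene lists were chosen with earlier results of these data known. Named genes were the 15 largest rises and falls, the 8 largest opposite differences, up to 6 members per list, list members behind counts of 5 or fewer, and 32 genes chosen for the cell type and treatment, of which some are not reported here. C1qb and Pax5 were added after their values were seen, as were others where stated. Predicted genes were counted only. Of the tested symbols 43 share their counts with another. Only the main edgeR fit was run on simulated data, which held no cytokine effect. The outcome is not reported here and does not bear on the other fits. Alternatives were DESeq2 1.42.0, limma-voom (3.58.1), other scalings, filters, folds, offsets and models, summed transcripts and leaving out each library. Plots were drawn with matplotlib.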

Additional observations from a re-analysis of the deposited data

Results flagged for a closer look

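A total of 143 genes were at least 2-fold higher than the untreated library with one cytokine and at least 2-fold lower with the other, 87 of them higher with IL-2 and 56 higher with IL-15. The difference between the cytokines was not tested. Log2 differences from untreated, with an offset of 1 count, are given for those named by rule. Higher with IL-2 and lower with IL-15 were Aspm (2.177 with IL-2 and -2.429 with IL-15), a spindle pole protein gene, Iqgap3 (2.459 with IL-2 and -3.998 with IL-15), Rad54b (2.632 with IL-2 and -3.268 with IL-15), a gene of recombination repair, and Perp (1.210 with IL-2 and -4.952 with IL-15), a p53 target. Iqgap3 and Perp had 0 reads with IL-15. Lower with IL-2 and higher with IL-15 were Fam161a (-3.180 with IL-2 and 2.422 with IL-15), Fam71f2 (-3.353 with IL-2 and 3.078 with IL-15), Odf3b (-2.488 with IL-2 and 2.646 with IL-15), Paqr5 (-3.180 with IL-2 and 2.524 with IL-15) and Slit3 (-2.156 with IL-2 and 2.600 with IL-15). All 5 had 0 reads with IL-2 and between 3 and 8 reads untreated, so their negative values depend on the offset.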

How the results depend on the processing

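The count of 222 genes called by edgeR was 728 with DESeq2, 19 with main effects only, 548 with a term for every pair of factors and 792 with only the 24 h and untreated libraries. Leaving out 1 library gave 93 (without IL-2, 1 nM, 24 h) to 305 (without IL-15, 1 nM, 24 h). The higher and lower calls were 116 and 106, against 149 and 81 with total-count scaling, 111 and 127 with median-of-ratios scaling and 74 and 192 with limma-voom. Total-count scaling moved the median of all genes by 0.11 (log2). The 1673 genes at least 2-fold the same way with both cytokines were 3143 at 1.5-fold and 938 at 3-fold, and 2512 to 2824 when 1 cytokine library was left out. The 143 opposite genes were 70 with at least 50 counts, 288 at 1.5-fold, 40 at 3-fold and 64 with an offset of 5 counts. Setting counts under 3 to 3, chosen after seeing the data, moved list medians by up to 0.63. Of 41 list medians, 6 changed sign with total-count scaling, 7 without the IL-2 library (shifts of up to 0.76) and 6 without the IL-15 library (up to 0.66). No paired analysis was possible because every condition has 1 library. The untreated library has no second copy, so its own deviation enters every difference.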

Other observations

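The genes in this paragraph were chosen after their values were seen, and each is given as CPM untreated, with IL-2 and with IL-15. Dtx1, a Notch target that regulates ubiquitination, fell from 534 to 59.4 and 90.2 (edgeR adjusted p = 0.000247), and Igfbp4, a binding protein for insulin-like growth factors, from 1040 to 171 and 158 (0.0106). Asb2, a ubiquitin ligase subunit, fell from 141 to 22.96 and 14.6 (0.00036), and Slc16a5, a transporter of the monocarboxylate family, from 131 to 23.7 and 18.7 (0.000375). At 1 nM and 4 h, Dtx1 measured 38.6 and 34.2 CPM and Slc16a5 6.49 and 4.19 CPM, below their levels at 24 h. Ly6a, the Sca-1 surface protein of activated T cells, rose from 9.46 to 80.7 and 32.2 (0.0249), and Slc6a19, a transporter of neutral amino acids, from 36.7 to 143 and 163 (0.00261). Gimap1 and Gimap9, GTPase genes of lymphocyte survival, rose from 311 to 702 and 681 (0.0288) and from 20.05 to 56.04 and 57.6 (0.0145). Neat1, a nuclear long noncoding RNA, rose from 45.6 to 119 and 165 (0.0122). Gp49a and Lilrb4, neighbouring receptor genes of similar sequence, rose from 1.52 to 22.5 and 20.9 (0.000375) and from 2.81 to 34.5 and 32.3 (0.000582). Without the IL-2 library the adjusted p was 0.0708 for Igfbp4, 0.0541 for Ly6a and 0.107 for Gimap1, and the other 8 stayed under 0.05 without either library.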
